A study of Bos taurus with 60 samples.

Results

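The genes described here are 100 genes whose mean transcript abundance in the endometrium was highest, relative to every other dietary group, in heifers fed an n-3 PUFA supplement and kept on a high plane of nutrition. They were chosen by their values in these same heifers. Counts were turned into log2 CPM (CPM, read counts scaled to a common library size), and a gene was considered if its mean over all 60 heifers was 1 or more, if its highest heifer lay less than 3 above its median, and if its correlation with the gene ENSBTAG00000008471 lay between -0.4 and 0.4. The 100 genes with the largest summed abundance were set aside. Of the 24616 genes in the table, 20669 had at least 1 count, 14363 passed the filter on low counts and 10340 met all of these limits. These 10340 eligible genes were ranked by the mean of the PUFA_High group minus the highest of the other 3 group means, and the top 100 were taken as the members.

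Messenger RNA was sequenced from endometrium, the lining of the uterus, of 60 nulliparous crossbred beef heifers. Estrus was synchronised, and for 30 days before insemination each heifer received a concentrate diet holding either a rumen-protected n-3 PUFA product made from fish oil (PUFA) or a control fat rich in palmitic acid (CON). After insemination the heifers either stayed on the high plane of nutrition (High) or were restricted to less than their estimated maintenance energy requirement (Low). The restricted ration kept the fat supplement at its level from before insemination. These diets were fed for 16 days, when the tissue was taken. The sample labels give 14 CON_Low, 14 CON_High, 15 PUFA_Low and 17 PUFA_High heifers, each a separate animal with 1 library.

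All 4 groups shared the breed type, the synchronisation and the insemination, and each held both pregnant and non-pregnant heifers, whose individual status was not used here. The design text that the submitters gave with the data has the sizes of the 2 PUFA groups the other way round, 15 high and 17 low. The study's methods hold both versions, one in the group sizes and the other in the pregnancy counts. Its results text and figure captions give the sizes as labelled. Between supplements, the study reports more differing genes on the low plane in pregnant heifers, and more on the high plane in non-pregnant heifers. Here genes were called at an adjusted p below 0.10 and a fold above 1.5, without regard to pregnancy. The labels then gave 0 genes on the high plane, and 219 higher and 150 lower on the low plane. Exchanged planes gave 109 higher and 97 lower on the high plane, and 4 and 2 on the low. The study called genes at a stricter adjusted p, below 0.001, and within each pregnancy status, so the counts are not like for like. At an adjusted p below 0.001 the labels gave 0 genes on the high plane, and 44 higher and 0 lower on the low plane. The labelled pattern is that of the study's pregnant heifers and not that of its non-pregnant ones. Which version is right was not settled here. The groups were taken from the sample labels, and the values with the planes exchanged are given in the closing section. Between 9635801 and 13943813 reads per library were counted in genes.

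The endometrium prepares for the embryo under progesterone and produces the prostaglandins that decide whether the corpus luteum persists. The long-chain n-3 fatty acids of fish oil enter cell membranes, where they compete with arachidonic acid as substrates for prostaglandin synthesis. Whole endometrium holds luminal and glandular epithelium, stroma, vessels and immune cells. In such bulk tissue fewer cells of a type and less RNA per cell cannot be told apart. The count table names genes only by Ensembl identifier, none of which could be paired with a symbol here. The members are therefore described by their abundance and not by function, and the tissue was not checked against marker genes.

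The excess that placed these genes in the list was small. The PUFA_High mean exceeded the highest other group mean by between 0.30 and 1.27 on the log2 CPM scale, with a median of 0.34, which is a fold of 1.27. Only 1 member exceeded 1.5-fold, and 3 exceeded 0.5 on the log2 scale. Over all eligible genes the median of the same quantity was -0.08. There was no step at the end of the list. The members ranked 99 and 100 had values of 0.2953 and 0.2953, and the next 2 genes, just outside, had 0.2951 and 0.2936. These values were used for the choice and were not tested.

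The members were of modest abundance and varied more between heifers than most genes. Their mean abundance had a median of 13.7 CPM, within a range of 2.01 to 901 CPM, against 26.2 CPM over the eligible genes. A mean of at least 10 CPM was reached by 61 members and a mean of at least 100 CPM by 6. The SD between heifers of 1 group had a median over members of 0.458 in CON_Low, 0.569 in CON_High, 0.609 in PUFA_Low and 0.591 in PUFA_High. Over the eligible genes the corresponding medians were 0.273, 0.361, 0.331 and 0.308, lower in every group. The highest heifer stood a median of 1.66 above the gene's own median for the members and 0.794 for the eligible genes. A ranking by differences of means favours genes with a wide spread, so this comparison describes the list and was not tested.

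Averaged over the 100 members, the PUFA_High heifers lay above most, but not all, of the others. The mean log2 CPM of the members per heifer was 3.76 ± 0.18 (SD, n = 14) in CON_Low, with a lowest heifer at 3.46, a median of 3.71 and a highest heifer at 4.05. In CON_High it was 3.71 ± 0.27 (SD, n = 14), from 3.08 through a median of 3.72 to 4.05. In PUFA_Low it was 3.61 ± 0.37 (SD, n = 15), from 2.64 through a median of 3.71 to 4.11. These 3 groups overlapped almost entirely.

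In PUFA_High the same mean was 4.18 ± 0.30 (SD, n = 17), with a lowest heifer at 3.75, a median of 4.16 and a highest heifer at 4.92. All 17 PUFA_High heifers lay above the median of the other 43 heifers, and 10 of the 17 lay above the highest of those 43. For no single member, however, did the lowest PUFA_High heifer exceed the highest heifer of the other groups. The PUFA_High heifers were the highest group by the median for 95 members and by mean CPM for 99, which the ranking itself fixed in large part. The ranking likewise fixed in large part where these heifers stood in the members' mean.

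**Figure D1:**
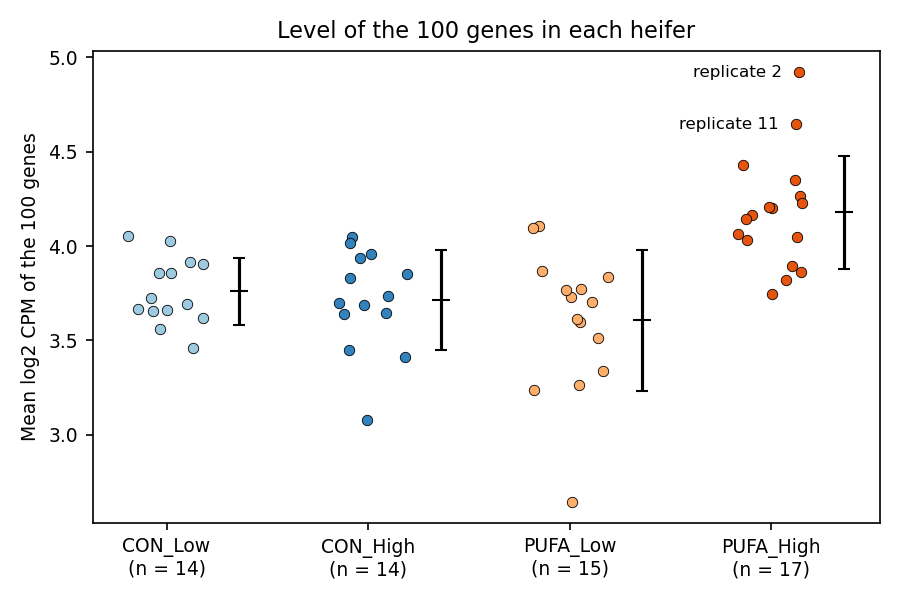
Mean log2 CPM of the 100 members in each of the 60 heifers, by dietary group, with 1 point per heifer and the group mean ± SD drawn beside them. PUFA_High heifers lie between 3.75 and 4.92, and replicates 2 and 11 (4.92 and 4.65) stand above the remaining heifers.

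The upper end of PUFA_High belonged to 2 heifers. Replicate 2 had a members' mean of 4.92 and replicate 11 one of 4.65, ahead of replicate 6 at 4.43. The highest of all 60 heifers was a PUFA_High heifer for 85 members, and it was replicate 2 for 38 of them and replicate 11 for 14. Over all eligible genes these 2 heifers were the highest for 6.34% and 4.73%. Without them the PUFA_High mean was 4.10 ± 0.20 (SD, n = 15), still above the means of the other groups. The rule used these 15 heifers too, so this value describes the list.

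At the level of single genes the influence of these 2 heifers differed widely. With both left out, all 100 members kept a PUFA_High mean above the other group means, but the excess ranged from 0.05 to 1.27, with a median of 0.28. It stayed at or above the entry limit of the list for 43 members. For 18 members it fell to less than 50% of the value with all heifers. The rule had used the remaining PUFA_High heifers too, so an excess above 0 without the 2 was largely fixed by the choice.

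**Figure D2:**
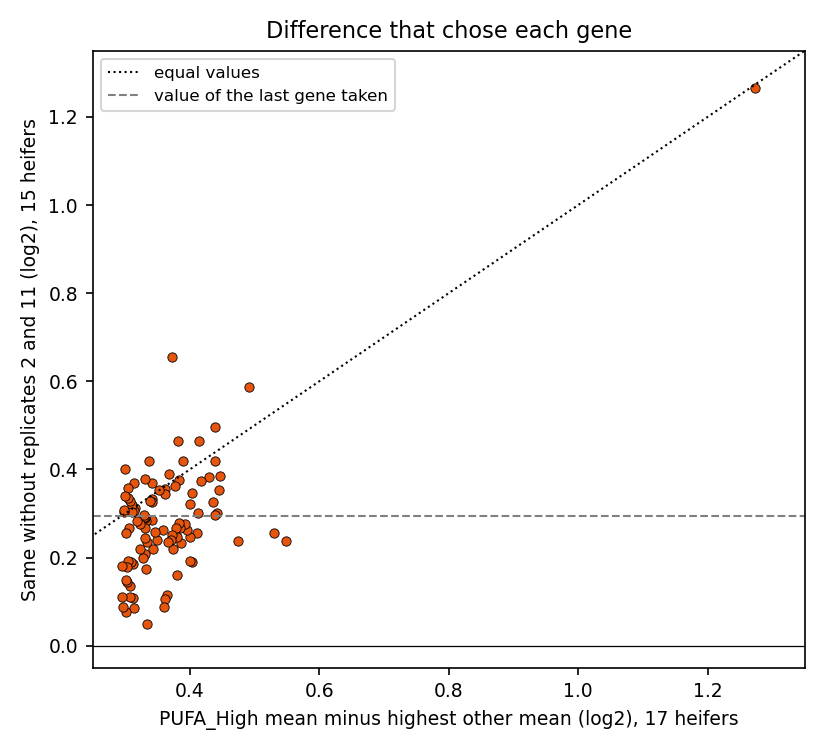
PUFA_High mean minus the highest of the other 3 group means (log2 CPM) for the 100 members, with all 17 PUFA_High heifers (horizontal axis) and without replicates 2 and 11 (vertical axis), 1 point per gene, with a dotted line at equal values and a dashed line at the value of the last gene taken. All points stay above 0, 43 reach the dashed line, and 1 member stands alone at 1.27 on both axes.

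**Figure D3:**
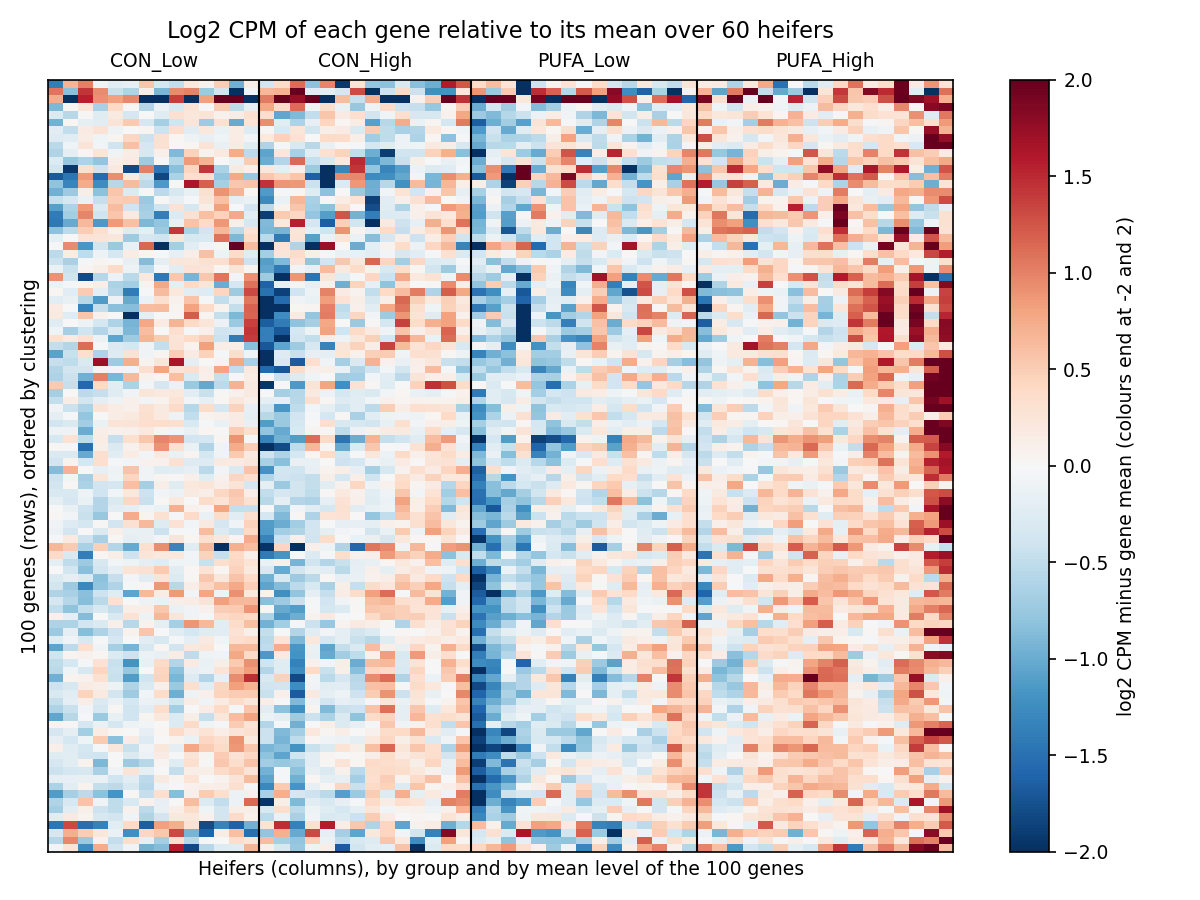
Log2 CPM of the 100 members in 60 heifers, each gene shown as its deviation from its mean over all heifers, with heifers grouped by diet and ordered by their mean level of the members (colours end at -2 and 2). PUFA_High columns are on the whole positive, with the strongest values in replicates 2 and 11, and single heifers of the other groups are low across many members.

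By the group means of single genes, the other 3 groups did not stand at 1 level. In the members' mean per heifer, however, their medians were almost equal, at 3.71 in CON_Low, 3.72 in CON_High and 3.71 in PUFA_Low. PUFA_Low had the lowest mean for 71 of the 100 members, CON_High for 18 and CON_Low for 11, whereas over the eligible genes those shares were 43.7%, 22.4% and 33.9%. CON_Low was the runner-up to PUFA_High for 63 members, CON_High for 25 and PUFA_Low for 12. The median over members of the group mean was 3.54 in CON_Low, 3.59 in CON_High, 3.37 in PUFA_Low and 4.02 in PUFA_High on the log2 CPM scale. For the eligible genes it was 4.68, 4.68, 4.65 and 4.69. The lowest of all 60 heifers in the members' mean was PUFA_Low replicate 10, at 2.64. Next came CON_High replicate 9 at 3.08, then PUFA_Low replicates 12, 7 and 8 at 3.24, 3.26 and 3.34.

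ENSBTAG00000038128, the member with the largest rule value, owed its place to heifers in which it was almost not detected. Its abundance in PUFA_High ran from 12.1 CPM through a median of 39.5 to 145 CPM, with a mean of 45.3 ± 34.6 (SD, n = 17). In CON_Low it ran from 0 through 28.5 to 88.6 CPM, with a mean of 29.2 ± 28.7 (SD, n = 14). In CON_High it ran from 0 through 25.8 to 151 CPM, with a mean of 40.4 ± 43.9 (SD, n = 14). The range of PUFA_High therefore lay wholly inside that of CON_High.

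In PUFA_Low this gene ran from 0 through 39.2 to 201 CPM, and its mean of 51.4 ± 54.9 (SD, n = 15) was higher than that of PUFA_High. Abundance was under 3 CPM in 5 CON_Low, 3 CON_High and 3 PUFA_Low heifers and in 0 of the 17 PUFA_High heifers. Those low heifers pull down a mean of logarithms far more than a mean of counts. The group means on the log2 CPM scale were 3.17 in CON_Low, 3.64 in CON_High, 3.89 in PUFA_Low and 5.17 in PUFA_High. The log2 fold change fitted to the counts was 0.16 (SE 0.67) for PUFA_High against CON_High and -0.18 (SE 0.65) against PUFA_Low. On the count scale, therefore, the member with the largest rule value did not have its highest mean in PUFA_High. Among the heifers at or above 3 CPM the means were 45.0 CPM in CON_Low, 51.4 in CON_High, 64.3 in PUFA_Low and 45.3 in PUFA_High.

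ENSBTAG00000017354, second by the rule value, showed the opposite shape, with an excess carried largely by 2 heifers. Its abundance in PUFA_High ran from 7.91 CPM through a median of 14.1 to 87.0 CPM, with a mean of 22.4 ± 24.0 (SD, n = 17). In CON_Low it ran from 6.85 through 10.9 to 18.5 CPM (mean 11.3 ± 3.17, SD, n = 14) and in CON_High from 8.29 through 12.3 to 15.6 CPM (mean 11.7 ± 1.96, SD, n = 14). In PUFA_Low it ran from 4.29 through 11.4 to 18.0 CPM (mean 11.5 ± 3.06, SD, n = 15). Only PUFA_High replicates 2 and 11, at 84.8 and 87.0 CPM, exceeded 20 CPM among the 60 heifers.

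Without these 2 heifers the PUFA_High mean of ENSBTAG00000017354 was 14.0 ± 2.97 CPM (SD, n = 15), with a highest value of 19.3 CPM, and the 4 groups overlapped. The log2 fold change against PUFA_Low was 0.96 (SE 0.24) with all heifers and 0.28 without the 2, and against CON_High it was 0.94 (SE 0.24) and 0.25. Between the groups that the 2 heifers do not enter, the gene hardly differed. By the quasi-likelihood test of edgeR, adjusted after Benjamini and Hochberg, the log2 fold change was 0.05 for CON_High against CON_Low (adjusted p = 0.993) and 0.02 for PUFA_Low against CON_Low (adjusted p = 0.966). The member ranked 3 by the rule value had a similar shape. It exceeded 30 CPM in 3 PUFA_High heifers and in 0 others, and its PUFA_High mean was 37.5 ± 35.3 CPM (SD, n = 17) with all heifers and 25.5 ± 6.47 CPM (SD, n = 15) without the 2.

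**Figure D4:**
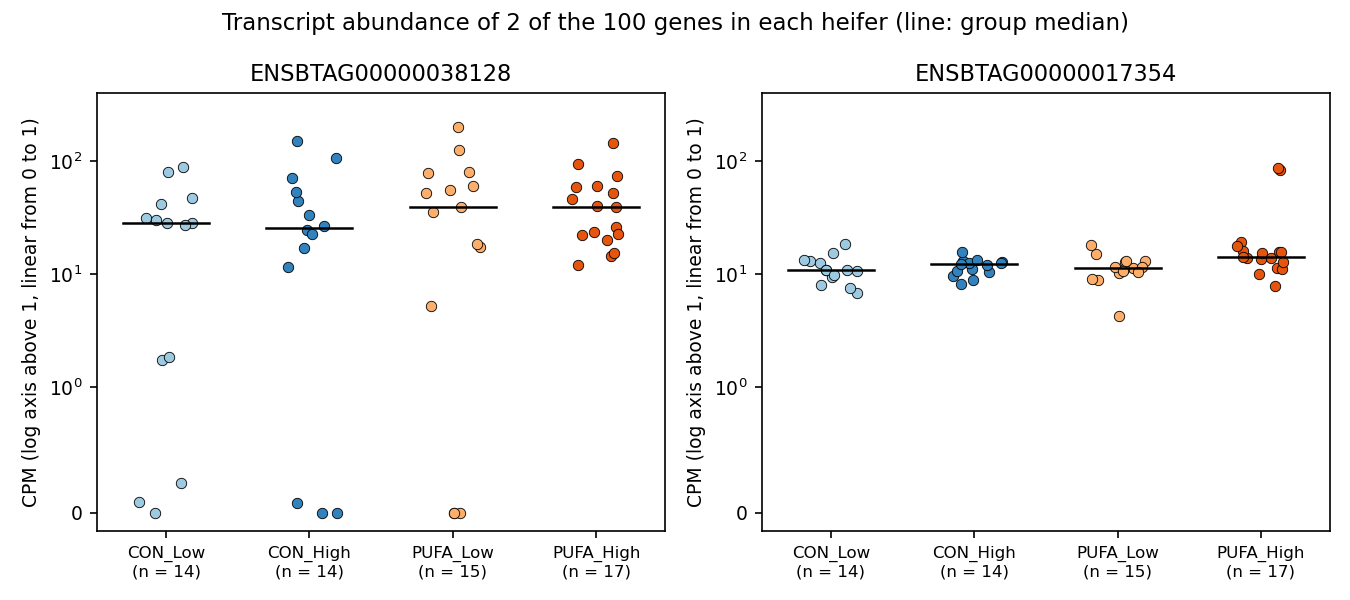
Abundance in CPM (log axis above 1, linear from 0 to 1) of ENSBTAG00000038128 (left) and ENSBTAG00000017354 (right) in each heifer by dietary group, with a line at the group median. On the left the other 3 groups hold heifers near 0 that PUFA_High lacks, and on the right PUFA_High replicates 2 and 11 stand at 84.8 and 87.0 CPM above all other heifers.

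Of the possible pairs of groups, 4 were compared, together with the interaction, with edgeR's quasi-likelihood test across the 14363 genes that passed the filter on low counts. PUFA_High against CON_Low and PUFA_Low against CON_High entered only through the fit with exchanged planes, given in the closing section. A gene was called at an adjusted p below 0.10 and a fold above 1.5. The 3 comparisons that hold PUFA_High share its 17 heifers, and the rule used them, so that their counts only describe the list. Against CON_High, the members' log2 fold changes lay between 0.16 and 1.14, with a median of 0.44 (all genes tested, -0.00). No member was called as higher, nor was any other gene (0% of genes tested), and DESeq2 called no member either. Leaving out 1 heifer at a time gave between 0 and 7 called members, with 7 without PUFA_High replicate 4 and 3 without replicate 5. The count was 1 or 2 without replicates 8, 9, 13, 15, 16 or 17, and 0 in the other fits. These counts are not set against the calls over all genes in the same fits, so they only describe the list. At an unadjusted p below 0.05, 58 members were higher, where 4.96% of all genes tested were.

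Between the planes in supplemented heifers, the members' log2 fold changes for PUFA_High against PUFA_Low had a median of 0.55 (all genes tested, 0.03), from -0.18 to 1.17, and 99 were positive. Of the members, 39 were called as higher, where 3.17% of all genes tested were. At an unadjusted p below 0.05 the count was 73 members, against 18.9% of genes. The count of 39 was 21 without PUFA_High replicate 2 and 18 without replicates 2 and 11, and 16 of those 18 were among the 39. Over all genes tested the count of 455 was then 358 and 296.

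The interaction of supplement and plane is the difference between planes in PUFA heifers minus that in CON heifers, and it had a median over members of 0.57 (all genes tested, 0.02), from -0.65 to 1.78. It was positive for 97 members. Of these, 31 were called, where 3.58% of all genes tested were called as positive. At an unadjusted p below 0.05 there were 49 members, against 13.4% of genes. Both the plane comparison in PUFA heifers and the interaction called 27 members. The 2 share all PUFA heifers, and the overlap over all genes tested is not given here, so this count only describes the list. Without PUFA_High replicates 2 and 11 the interaction called 17 members, all of them among the 31, and 367 genes in all as positive, against 514 with every heifer.

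The 2 comparisons without PUFA_High were the ones least shaped by the choice, since the rule used their groups only through the highest of 3 means. They were not free of it. A wide difference among CON_Low, CON_High and PUFA_Low raises the highest of their means and so lowers a gene's rule value. Small counts of differing members in these 2 comparisons are therefore partly fixed by the choice. For CON_High against CON_Low the members' median log2 fold change was -0.01 (all genes tested, 0.01), with 43 of 100 positive. No member was called in either direction by edgeR, where 0% of genes tested were called as higher and 0% as lower, and DESeq2 called none. At an unadjusted p below 0.05, 0 members were higher and 0 lower, against 3.65% and 1.26% of all genes tested. The smallest adjusted p of a member was 0.911 in edgeR's test, and that was also the smallest over all genes tested. In this fit a difference between planes in control heifers was detected neither for these genes nor for any other gene tested.

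For PUFA_Low against CON_Low the members' median was slightly below 0. Their median log2 fold change was -0.11 (all genes tested, -0.01), and 22 of 100 were positive. With edgeR no member was called as higher or lower, where 1.52% of genes tested were called as higher and 1.04% as lower. DESeq2 called 1 member as lower, and 147 genes in all. Leaving out 1 heifer at a time gave 2 members called as lower without PUFA_Low replicate 4 or 9 (177 and 270 genes lower in all). It gave 1 without CON_Low replicate 2, 3 or 6, CON_High replicate 14 or PUFA_Low replicate 11 (188, 161, 179, 162 and 195 genes), and 0 otherwise. At an unadjusted p below 0.05, 0 members were higher, against 14% of genes tested, and 6 were lower, against 12.5%. The direction of the median turned with the share of abundant genes as a covariate, where it was 0.11. It kept its direction but was smaller in size without PUFA_Low replicate 10, at -0.05, and without PUFA_Low replicate 7, at -0.06.

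Members rose and fell together from heifer to heifer within a diet, after the group means that chose them had been removed. The median correlation between 2 members of their deviations from the group mean was 0.17 in CON_Low (n = 14), 0.25 in CON_High (n = 14), 0.36 in PUFA_Low (n = 15) and 0.20 in PUFA_High (n = 17). Between 69.2% and 83.3% of pairs were positive in the 4 groups. Over the eligible genes the median lay near 0 in each group, and was farthest from it at -0.0015 in PUFA_High. The 100 genes ranked next gave 0.18, 0.23, 0.34 and 0.14, so the shared movement was not particular to the members. Points in these correlations share libraries and their depth, and they are a description. In PUFA_Low the value was 0.26 without replicate 10, and in PUFA_High it was 0.13 without replicates 2 and 11, where the 100 genes ranked next also gave 0.13.

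In the 43 heifers outside PUFA_High, clustering on these correlations put 62 members in 1 cluster, and the other 38 fell into 13 smaller clusters of at most 9 genes. The 62 members had a median correlation of 0.46 in these same 43 heifers, which the clustering itself fixed in large part. Their mean log2 CPM was 4.18 ± 0.22 (SD, n = 14) in CON_Low, 4.12 ± 0.35 (SD, n = 14) in CON_High, 3.97 ± 0.46 (SD, n = 15) in PUFA_Low and 4.56 ± 0.34 (SD, n = 17) in PUFA_High. Replicates 2 and 11 of PUFA_High stood at 5.38 and 5.18, and the next heifer, replicate 6, stood at 4.80. The highest heifer outside PUFA_High reached 4.62, above the PUFA_High mean of 4.56, so the groups overlapped. Without those 2 heifers the PUFA_High mean was 4.46 ± 0.21 (SD, n = 15). This cluster, which is 62 of the 100 members, held 29 of the 39 members called between planes and 25 of the 31 called for the interaction. No share over all genes is set beside these counts, so they only describe the list.

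The members' level also moved with the make-up of the library. The 100 most abundant genes together took a share of all counts that was 21.8 ± 2.15% (SD, n = 14) in CON_Low, 22.0 ± 2.99% (SD, n = 14) in CON_High, 25.8 ± 3.31% (SD, n = 15) in PUFA_Low and 20.8 ± 1.91% (SD, n = 17) in PUFA_High. It was lower in PUFA_High than in PUFA_Low in a two-sided permutation test (p = 2e-05, the smallest these permutations can give, adjusted p = 0.00018 over 9 tests of library measures). Against CON_High (p = 0.214, adjusted 0.285) and CON_Low (p = 0.199, adjusted 0.285) the permutation test did not reach the threshold of 0.05. Total counts and the number of genes detected did not reach it in any of the 3 comparisons after adjustment, with adjusted p between 0.135 and 0.724 in permutation tests.

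Heifers with a larger share had lower members. The correlation of the share with the members' mean was -0.51 in CON_Low, -0.50 in CON_High, -0.63 in PUFA_Low and -0.31 in PUFA_High, with Spearman's rho of -0.61, -0.60, -0.55 and -0.25. Without the 2 heifers farthest from the median share it was -0.68, -0.91, -0.71 and -0.29. In PUFA_High without replicates 2 and 11 the correlation was weaker, at -0.20 with a rho of -0.14. In the 43 heifers outside PUFA_High, 90 of the 100 members correlated negatively with the share (median r -0.33), against 53.4% of eligible genes (median r -0.05). Both quantities come from the same library, so these correlations are a description. With the share as a covariate, edgeR called 3 members as higher between planes, where 37 of the 14363 genes tested were called as higher against 455 without it. For the interaction it called 0 members and 0 genes in all, against 31 and 514 positive calls without it. The members' median log2 fold change was 0.28 between planes and 0.29 for the interaction with the covariate, and 0.55 and 0.57 without. For PUFA_High against CON_High it was 0.38 with the covariate and 0.44 without. The log2 fold change of ENSBTAG00000017354 between planes was 0.63 with the covariate, where the gene was not called, and 0.96 without. The part of the share in the difference between groups was not tested.

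**Figure D5:**
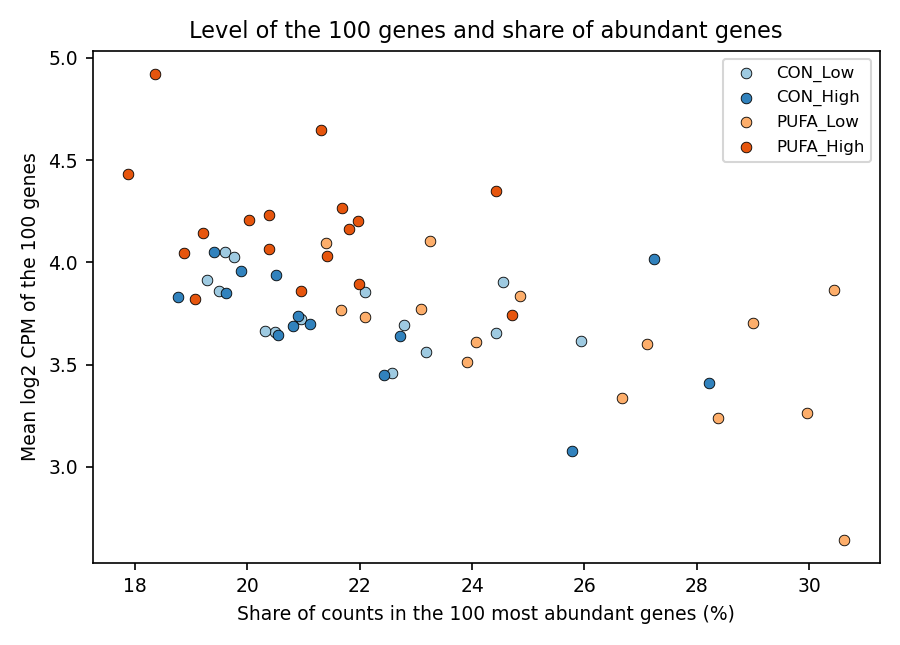
Mean log2 CPM of the 100 members against the percentage of each library taken up by the 100 most abundant genes, 1 point per heifer, coloured by dietary group. The members tend to be lower where the share is higher, least so in PUFA_High (r = -0.31, and -0.20 without replicates 2 and 11), and PUFA_High heifers, with shares of 17.9 to 24.7%, lie mostly above the heifers of other groups with a like share.

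The library codes in the labels carry 6 different prefixes, whose meaning the labels do not state. Each prefix held 2 or 3 PUFA_High heifers. Within each of the 6, the mean of the members in PUFA_High exceeded the highest other group by between 0.20 and 0.61 on the log2 CPM scale, and without replicates 2 and 11 by between 0.20 and 0.43. The members were ranked on these same heifers, so these values describe the list and support no direction.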

How the data were processed

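Endometrial RNA of 60 heifers was sequenced as 1 single-end TruSeq messenger RNA library per heifer. The deposited table holds raw read counts per gene, which the authors made, per the submitters' processing notes, with CASAVA 1.4, TopHat2 2.0.9 against UMD3.1 and HTSeq 0.5.4p5. Use of strand and treatment of reads with several matches are not given in the sources used here. Groups came from the sample labels. Total counts of 9635801 to 13943813 per library set the precision.

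Here the counts were filtered with filterByExpr, scaled by TMM and tested with the quasi-likelihood test of edgeR 4.0.16 (R 4.3.3), with 1 coefficient per dietary group and Benjamini-Hochberg adjustment over 14363 genes. Genes were called at an adjusted p below 0.10 and a fold above 1.5. A stricter adjusted p of 0.001 and DESeq2 1.42.0 were among the alternatives. Log2 CPM used a prior count of 2. Library measures were compared with two-sided permutation tests of 100000 resamples. The scripts were tested on simulated counts. Among 423 pairs of heifers within groups chi-square per gene was at least 17.4, and no library was treated as a repeat. Replicate numbers were not taken to pair heifers across groups.

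The members, comparisons and gene lists were chosen with earlier results of these data known. None of the identifiers matched the 37063 genes of the RefSeq table of assembly ARS-UCD2.0, so the planned counts over gene lists and cell type markers, and the planned description of gene length, base composition, chromosome and promoter motifs, were not run. The rule for named genes then fell back to the 2 members with the largest rule value. The member ranked 3 by that value, and heifers named singly, were chosen after their values were seen. The fits without PUFA_High replicates 2 and 11, and those without each heifer in turn, were likewise added after the data were seen.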

Additional observations from a re-analysis of the deposited data

Results flagged for a closer look

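For 31 of the 100 members the effect of plane differed between PUFA and CON heifers, by the interaction term of the quasi-likelihood test of edgeR, adjusted after Benjamini and Hochberg, where 514 of 14363 genes tested (3.58%) were called as positive. With the share of abundant genes as a covariate 0 members, and 0 genes in all, were called. For ENSBTAG00000017354 this interaction was 0.91 on the log2 scale (SE 0.34). It was 0.23 without PUFA_High replicates 2 and 11 and 0.54 with the share as a covariate, and it was called in neither fit. All these values rest on PUFA_High means that the choice of members used, and they describe the list.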

How the results depend on the processing

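The membership itself depended on single choices. Of the 100 members, 96 stayed with RLE factors, 97 with upper-quartile factors, 97 with a prior count of 0.5 and 85 without the limit on the correlation. Only 62 stayed without the limit on the highest heifer, 41 with group medians in place of means, 45 without PUFA_High replicates 2 and 11, and 51, 62, 61, 58 and 59 with library code prefix 1, 2, 3, 4 or 6 left out (68 for prefix 5). Leaving out 1 heifer kept between 67 and 99, the lowest without PUFA_High replicate 2.

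With the planes of the PUFA heifers exchanged, as the sizes in the design text would have it, 0 members stayed, the 39 members called between planes were all lower (455 of 14363 genes tested were), 13 members were called with a negative interaction (156 genes), and ENSBTAG00000017354 changed to -0.96 between planes and -1.01 for the interaction. The members' median for PUFA_High against CON_High was then -0.10 in place of 0.44, with 0 members called and 109 genes higher and 97 lower in all, where none was called with the planes as labelled. For PUFA_Low against CON_Low the median was 0.44 in place of -0.11, with 0 members called and 4 genes higher and 2 lower. These 2 fits compare the heifers labelled PUFA_Low with CON_High and those labelled PUFA_High with CON_Low. With the share as a covariate the median for PUFA_Low against CON_Low was 0.11. Neither these counts nor the study's, described above, settled which sizes are right.

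Between planes in PUFA heifers the 39 called members became 9 at an adjusted p below 0.001, 3 with the share of abundant genes as a covariate and 18 without PUFA_High replicates 2 and 11, while the 455 genes called as higher became 69, 37 and 296. For the interaction 31 became 0, 0 and 17, and 514 genes became 0, 0 and 367. Leaving out 1 heifer gave 21 to 49 and 25 to 38. The calls over all genes moved as well, to 622 higher in the fit with 49 members and 595 positive in that with 38. For PUFA_High against CON_High 1 member was called with all genes of at least 1 count (30 genes higher in all), and 0 to 7 without 1 heifer. For PUFA_Low against CON_Low 1 was called as lower by DESeq2, with at least 10 counts in every library and with the compared groups alone (147, 88 and 148 genes lower in all), and 0 to 2 without 1 heifer. CON_High against CON_Low gave 0 under every alternative run. The interaction on compared groups alone was not run.

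With the replicate number as a replicate block, 32 members were called between planes (336 genes higher in all) and 24 for the interaction (318 positive), and the interaction of ENSBTAG00000017354 was 0.71 (adjusted p = 0.167 in edgeR's test). Same-numbered heifers of different groups correlated at -0.05 in their deviations and others at 0.00, so they share only a number.

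The median correlation between members in PUFA_Low, 0.36, was 0.26 with the share removed and 0.26 without replicate 10. With the share removed it was 0.13 in CON_Low, 0.19 in CON_High and 0.22 in PUFA_High, against 0.17, 0.25 and 0.20 before. Without the farthest heifer it was 0.13 in CON_Low, 0.17 in CON_High and 0.17 in PUFA_High, where it was 0.13 without replicates 2 and 11. The cause of these changes was not tested. The least abundant members, with means down to 2.01 CPM, rest on the fewest reads.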

Other observations

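Some heifers held the highest value for many genes across the transcriptome. CON_High replicate 9 held the highest value of all 60 heifers for 11.0% of the genes tested, CON_High replicate 11 for 7.94%, PUFA_Low replicate 10 for 7.62%, PUFA_High replicate 2 for 5.87% and PUFA_High replicate 11 for 5.62%. These were the 5 largest shares. In the members' mean log2 CPM, CON_High replicate 9 and PUFA_Low replicate 10 were the lowest of all, at 3.08 and 2.64, CON_High replicate 11 stood at 3.41, and PUFA_High replicates 2 and 11 were the highest, at 4.92 and 4.65. By contrast, PUFA_Low replicate 12, the next lowest at 3.24, held the highest value for 1.75% of genes, and PUFA_High replicate 6, the next highest at 4.43, for 2.78%.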
